A study of Mus musculus with 41 samples.

Results

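The genes described here are 35 markers of macrophages and monocytes, measured in 41 mouse melanomas on Affymetrix whole-genome mouse arrays. They were chosen by symbol from the 18194 genes that have a probe set of their own on the array, and each is read from the probe set with its highest mean over all arrays. Of the 35, 34 passed the filter on low values and were tested among 14319 genes. Marco, a scavenger receptor of some tissue macrophages, did not pass.

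The tumours came from iBIP mice, in which melanomas driven by BRAF grow while doxycycline (dox) is in the drinking water. All groups share this strain, for which the labels give the name and no promoter, age or sex. Dox was withdrawn, which switches the oncogene off, and the tumours were taken at stated days: 4 before withdrawal (day 0), 7 on day 1, 5 on day 2, 6 on day 3, 4 on day 6, 3 on day 9, 1 each on days 16 and 29, and 10 from day 63 to day 163, here called late. Skin was trimmed away and RNA was made from a piece of frozen tumour, so every value mixes tumour cells with whatever other cells the piece held. Whether the tumours are from separate mice is not in the labels, so the p values measure the spread between these tumours. Nor do the labels tell remnants from regrowths among the late tumours.

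Macrophages take up dead cells and debris, kill microbes, and remodel tissue. Their identity depends on the transcription factor PU.1 (gene Spi1) and on signals through the CSF1 receptor (Csf1r). Macrophages that live in a tissue for long often carry scavenger and uptake receptors such as CD206 (Mrc1), CD163, FOLR2 and stabilin-1 (Stab1). Monocytes that have just entered from the blood, and macrophages that meet microbial or damage signals, carry sensors such as Mincle (Clec4e), CD14 and TLR2. Several of the 35 genes are not specific to macrophages: Mrc1 and Stab1 are also made by some endothelial cells, Pf4 by megakaryocytes, and Lyz2, Itgam, Itgb2, Cd14, Tlr2, Clec4e, C5ar1 and Cybb by neutrophils.

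Promoters are shown for 3 members that span the range of responses described below: Cybb, which had the largest rise of the 34 on days 1, 3, 6 and 9, Clec4e, an inflammatory sensor that was called higher on days 2, 3 and 6, and Mrc1, a resident marker that was not called on any day from 1 to 9. Each window of 300 bases spans the gene's start in RefSeq (GRCm38.p6), most of it upstream. Capitals mark GAGGAA, the purine-rich core that PU.1 and other ETS factors bind, on either strand, so that TTCCTC is the same core on the other strand. The windows are chrX:9469275-9469574, minus strand for Cybb, chr6:123289822-123290121, minus strand for Clec4e and chr2:14229164-14229463, plus strand for Mrc1.
Cybb: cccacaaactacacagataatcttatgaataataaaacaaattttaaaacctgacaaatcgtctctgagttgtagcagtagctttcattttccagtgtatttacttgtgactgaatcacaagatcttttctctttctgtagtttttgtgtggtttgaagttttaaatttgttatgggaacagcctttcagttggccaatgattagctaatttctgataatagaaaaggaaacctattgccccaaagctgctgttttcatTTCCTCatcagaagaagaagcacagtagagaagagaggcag
Clec4e: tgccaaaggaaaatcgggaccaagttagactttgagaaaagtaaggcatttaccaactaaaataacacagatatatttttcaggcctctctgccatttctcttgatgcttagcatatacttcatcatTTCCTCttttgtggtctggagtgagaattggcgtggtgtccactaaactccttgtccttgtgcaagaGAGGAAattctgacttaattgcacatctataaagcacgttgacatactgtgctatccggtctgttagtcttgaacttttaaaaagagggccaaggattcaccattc
Mrc1: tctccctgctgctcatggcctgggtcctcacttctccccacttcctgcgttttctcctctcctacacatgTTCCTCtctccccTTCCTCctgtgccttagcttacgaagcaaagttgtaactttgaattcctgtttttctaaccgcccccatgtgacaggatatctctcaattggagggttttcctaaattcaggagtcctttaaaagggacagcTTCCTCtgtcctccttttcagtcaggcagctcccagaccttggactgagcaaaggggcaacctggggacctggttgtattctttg
A window was at hand for 25 of the 35 members, and 16 of those held GAGGAA, against 31.3% of 27025 genes with a window. Among members with a window, the core was in 2 of the 6 that were called higher at all of days 1, 2, 3 and 6. It was in 9 of the 12 called higher at 1 to 3 of these days, and in 4 of the 6 called higher at none of them. It stood in Mrc1 at 3 places and in Clec4e at 2, and was not in the windows of Lyz2, Mpeg1, Tlr2, Cd163 or Folr2. The longer GAGGAAGT was in 2 windows, those of Retnla and Pf4, against 3.69% of genes. The pattern TGANTCA, which reads the same way on both strands, covers the AP-1 site but allows any base at its centre. It was found in 6 members (Cd68, Folr2, Trem2, Ms4a7, C3ar1 and Cybb), against 8.97% of genes. In Cybb and Trem2 the match was TGAATCA and in Ms4a7 TGATTCA, not the AP-1 forms TGACTCA or TGAGTCA. These matches describe letters and say nothing about binding.

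Levels are given as log2 intensities. Differences are on the same log2 scale, each followed by its standard error (SE). A gene was called when limma's p, adjusted by Benjamini-Hochberg over all 14319 genes, was under 0.05. The adjusted p values are from that fit of 41 tumours unless another setting is named. For groups of over 5 tumours (days 1 and 3 and the late tumours) the lowest, median and highest values are given, in that order. In pieces of whole tumour, fewer cells of a type and less RNA per cell cannot be told apart.

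The arrays differed in ways that follow the groups. Log2 levels of the spike-in controls bioD and dap put them into 3 sets by fixed cuts. Arrays with dap under 9.4 formed set 2. Of the rest, those with bioD under 12 formed set 1 and the others set 3. Some arrays lay near a cut, such as day 0 replicate 2 with bioD at 12.05 and day 3 replicate 4 with dap at 9.49. Set 1 held every tumour of days 2, 3 and 6 and 1 of day 1, set 2 held 8 late tumours and the other 6 of day 1, and set 3 held days 0, 9, 16 and 29 and 2 late tumours. Thus no tumour of days 1 to 6 shared a set with day 0, and no value within 1 set can be had for those days against day 0. A fit with the set as a term links them to day 0 only through the day 1 and late tumours that fall in different sets. The comparisons that can be made within 1 set are day 9 against day 0, late against day 1 and day 6 against day 2. Late against day 0 can be made within set 3 too, but with only 2 late tumours. The gap between 3′ and 5′ Gapdh probe sets, which widens as RNA degrades, was at most 1.04 at days 0 to 6, but was over 2 in 1 tumour of day 9 and in 8 of the 10 late tumours. The mean of 6 melanocyte genes, which mark the tumour's own lineage, lay between 6.53 and 8.42 in the 41 tumours.

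Skin markers differed between tumours although skin had been trimmed. The mean of 7 keratinocyte genes spanned 6.05 to 9.21 at day 0, 6.58 to 10.63 at day 1, 6.38 to 11.93 at day 2, 8.57 to 11.58 at day 3, 9.06 to 11.38 at day 6, 8.52 to 10.47 at day 9 and 6.14 to 11.87 in the late tumours. Of these 7 genes, limma called 0, 0, 1 and 0 higher on days 1, 2, 3 and 6, the 1 being Krt10 (4.14 ± 1.31, adjusted p = 0.0228), and 1, 2, 3 and 3 had an unadjusted p under 0.05. Their median differences from day 0 were 1.13, 1.78, 2.01 and 2.29 on those days, with overlapping groups. The part of skin in the macrophage values was not tested.

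Macrophage genes were higher within a day of withdrawal. At day 1, 15 of the 34 were called higher than at day 0 and none lower, while 7.57% of all tested genes were called higher. At day 2, 16 were called higher (6.74% of all genes), at day 3, 18 (9.74%), and at day 6, 16 (5.74%). No member was called lower on any of these days, while 6.25%, 8.35%, 11.6% and 6.46% of all genes were. On these 4 days the median change of the 34 was 1.11, 1.04, 1.14 and 1.19, whereas the median over all tested genes lay between -0.02 and 0.00. By day 9 the members called higher numbered 5 (2.65% of all genes) and those called lower 0 (1.91%), with a median of 0.50. In the late tumours 4 members were higher (26.3%) and 3 lower (20.1%) than at day 0, with a median of 0.11. Since so many genes of all kinds were called in the late tumours, both counts are below the background there.

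A count of members whose tumours were all above those of day 0 was also taken. It was 7 at day 1 (3.97% of all genes) and 9 at day 2 (6.26%), then 14 at day 3 (7.86%) and 17 at day 6 (10.5%). At day 9 it was 5 (9.25%), and in the late tumours 1 (10.1%). Groups of fewer tumours separate more easily, so these counts are to be read only against their own background.

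**Figure D1:**
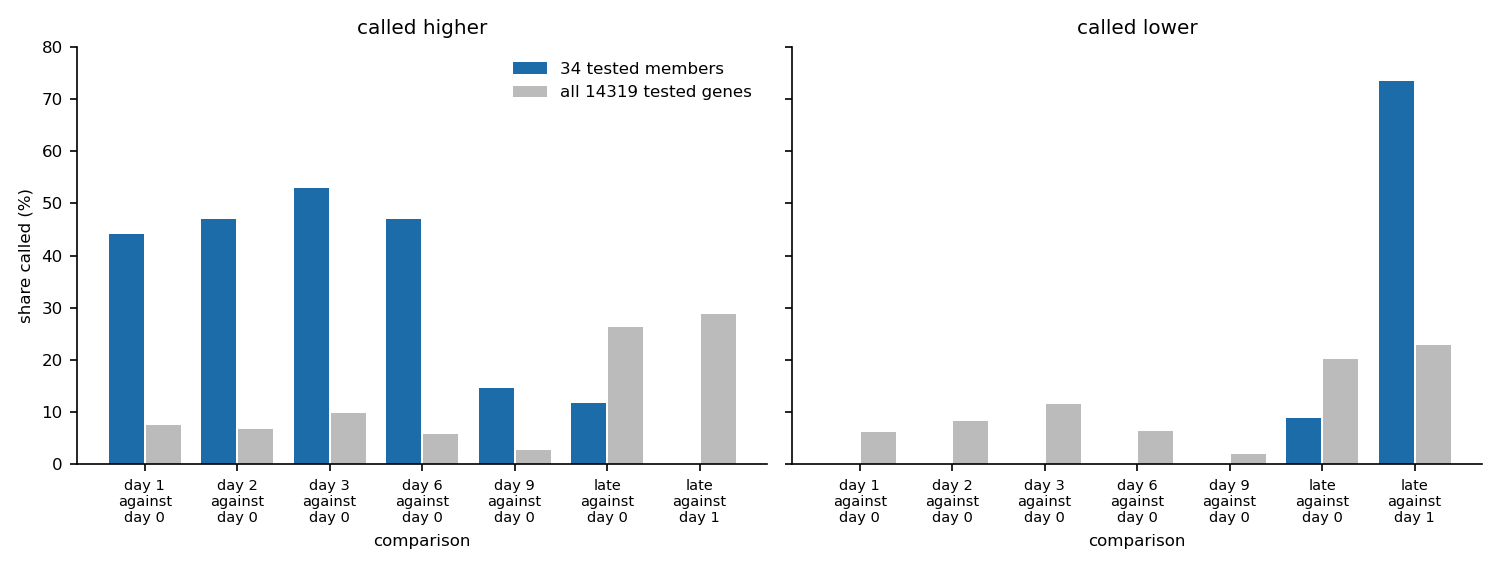
Share of the 34 tested members (blue) and of all 14319 tested genes (grey) called higher (left) and lower (right) in each comparison, in percent, at an adjusted p under 0.05. The members exceeded the background among higher genes at days 1 to 9 and among lower genes in late tumours against day 1, where 25 of 34 were called lower.

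The 10 members Lyz2, Cd68, Csf1r, Adgre1, Mpeg1, Itgb2, Tlr2, Tlr7, C3ar1 and Cybb were called higher on all of days 1, 2, 3 and 6. Another 11 were called on none of them, namely the 4 resident members, Cd14, Arg1, Msr1, Maf, Clec7a, Clec4n and Pf4. The other 13 were called on 1 to 3 of these days. The day 0 tumours were the same in each comparison, so the days are not independent of each other. Day 0 replicate 4 had the lowest level of its group in 15 members and day 0 replicate 3 in 18. Without day 0 replicate 4 the count fell to 10 at day 2 and 11 at day 3, and 10 members at each of days 1, 2 and 3 and 11 at day 6 kept their call whichever tumour was left out. With spike-in set as a block in the fit the counts were 4 at day 1, 1 at day 2, 2 at day 3 and 1 at day 6, while the medians of the members were 0.78, 1.10, 1.30 and 1.33 on those days. In that fit 7.77%, 0.286%, 0.594% and 0.237% of all genes were called higher.

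**Figure D2:**
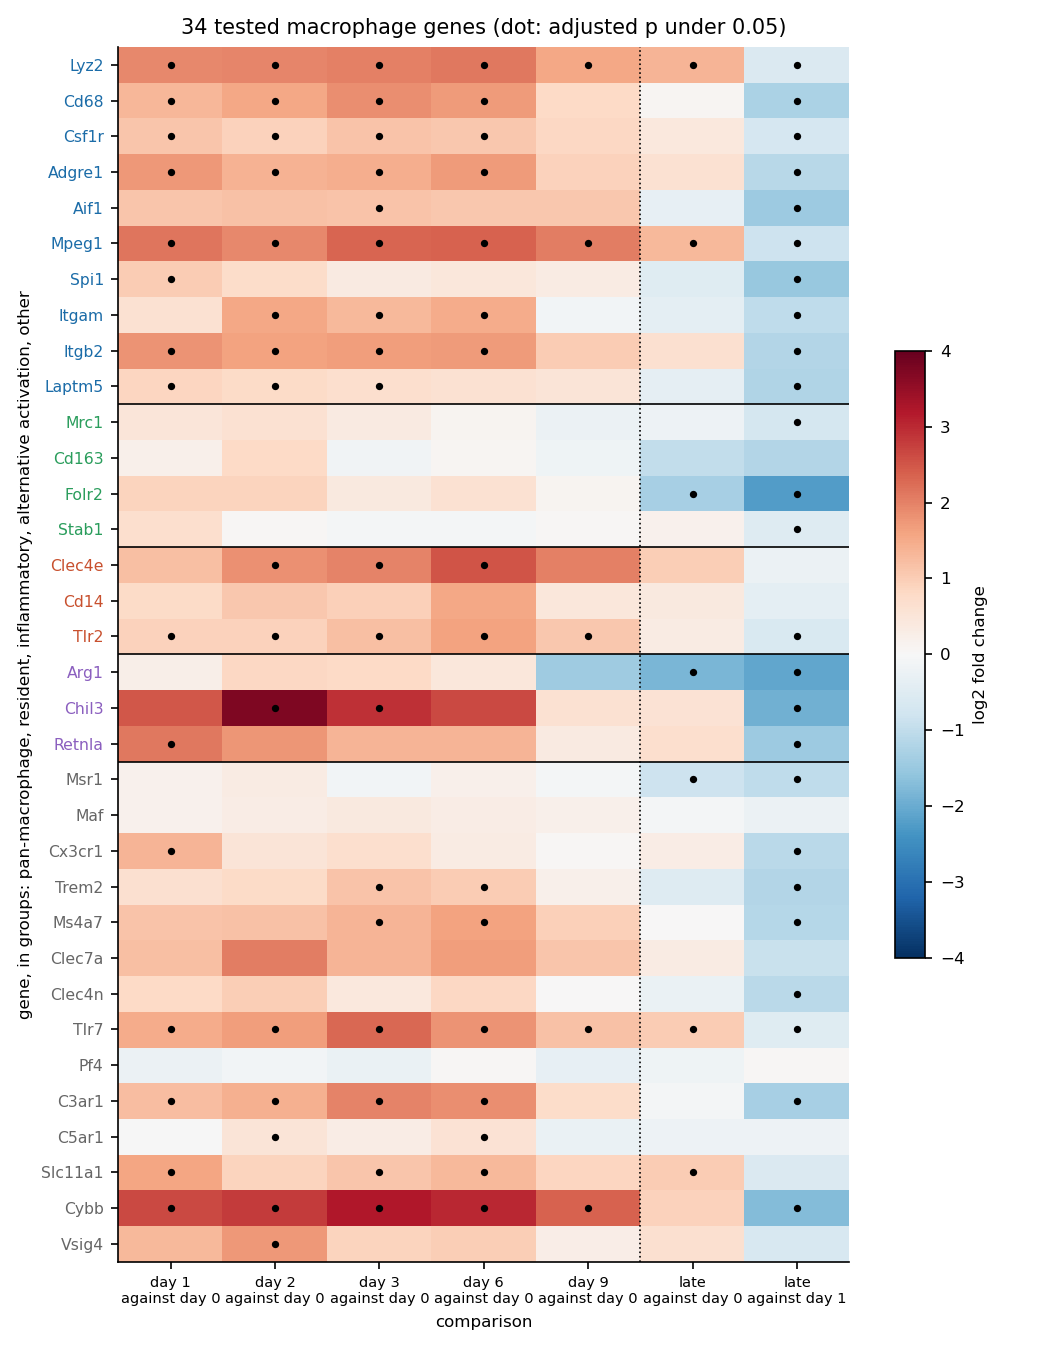
Log2 fold changes of the 34 tested members (rows, grouped by role) in 7 comparisons (columns), red for higher and blue for lower in the first-named group, with a dot where the adjusted p is under 0.05. Dots fill most of the pan-macrophage rows at days 1 to 6, are missing from the 4 resident rows before the late tumours, and cover 25 of 34 rows in the last column.

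Of the transcription factors among the members, between days 1 and 9 Spi1 was called at day 1 only and Maf on no day. Spi1, which encodes PU.1, read 8.27, 8.15, 7.46 and 7.78 at day 0, 7.73, 9.25 and 9.47 at day 1, 9.22, 9.20, 8.41, 8.06 and 8.28 at day 2 and 7.63, 8.34 and 8.66 at day 3. It then read 8.36, 7.98, 8.44 and 8.74 at day 6, 8.06, 8.81 and 7.87 at day 9, 8.16 at day 16, 7.70 at day 29 and 7.05, 7.43 and 7.99 in the late tumours. Day 1 and day 0 overlapped through the lowest day 1 tumour, replicate 4, which lay below 3 of the 4 at day 0. The rise of Spi1 at day 1 was 1.03 ± 0.27 (SE, adjusted p = 0.0108), a call that was lost without day 0 replicate 3 (adjusted p = 0.0547). At day 2 the difference was 0.72 ± 0.29 (SE, adjusted p = 0.0921), at day 3 0.35 ± 0.28 and at day 6 0.47 ± 0.31, none of which passed the test. Maf, a transcription factor linked to resident macrophages, was called in no comparison, and its means lay between 9.94 and 10.38 in the groups of more than 1 tumour. The other 5 probe sets of Maf, which were not tested, differed from -0.14 to 1.03 at day 3, against 0.38 in the one used. In the late tumours these 5 differed from -1.30 to 1.20 against day 0, where the one used gave -0.06. Against day 1 they differed from -1.81 to 0.85, and the one used gave -0.24.

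Csf1r, the receptor for the macrophage growth factors CSF1 and IL-34, was called higher on each of days 1 to 6. It read 12.16, 11.38, 11.07 and 11.21 at day 0, 12.04, 12.69 and 12.76 at day 1, 12.79, 12.62, 11.99, 11.86 and 12.57 at day 2 and 12.02, 12.63 and 13.08 at day 3. Later values were 12.39, 12.61, 12.70 and 12.41 at day 6, 12.14, 12.35 and 12.40 at day 9, 12.52 at day 16, 11.56 at day 29 and 10.99, 12.07 and 12.43 in the late tumours. Day 0 replicate 1 stood above the other 3 of its group and overlapped with days 1, 2 and 3, while all 4 tumours of day 6 were above it. The change was 1.10 ± 0.23 (SE, adjusted p = 0.00179) at day 1, 0.91 ± 0.25 at day 2, 1.15 ± 0.24 at day 3 and 1.07 ± 0.26 at day 6, and the day 2 call was lost without day 0 replicate 3 or 4. At day 9 it was 0.84 ± 0.28 (SE, adjusted p = 0.0718), which did not pass.

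Genes of the lysosome and of killing were among the members that rose on all of days 1 to 6. Lyz2, the lysozyme of macrophages and neutrophils, read 11.36, 11.92, 11.03 and 9.96 at day 0, 12.60, 12.93 and 13.29 at day 1, 13.63, 13.15, 12.44, 12.80 and 13.04 at day 2 and 12.77, 13.14 and 13.30 at day 3. Its values were 13.01, 13.23, 13.29 and 13.25 at day 6, 12.36, 12.86 and 12.66 at day 9, 12.16 at day 16, 10.97 at day 29 and 11.28, 12.73 and 12.93 in the late tumours. Every tumour of days 1 to 9 was above all 4 of day 0, and the day 29 tumour was back among them. The log2 fold change of Lyz2 was 1.93 ± 0.27 (SE, adjusted p = 3.49e-05) at day 1, or 3.81-fold on this scale, and 2.12 ± 0.31 (SE, adjusted p = 4.65e-05) at day 6. With spike-in set as a block neither was called, at 0.84 (adjusted p = 0.134) and 1.44 (adjusted p = 0.19). At day 9 it was 1.56 ± 0.33 (SE, adjusted p = 0.00744), and 1.56 as well within spike-in set 3 alone, where it did not pass (adjusted p = 0.177).

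Cd68, a lysosomal membrane glycoprotein, read 9.37, 9.93, 8.87 and 7.74 at day 0, 9.81, 10.28 and 10.85 at day 1, 10.56, 11.37, 10.60, 10.13 and 9.90 at day 2 and 10.58, 10.91 and 10.97 at day 3. It read 10.88, 10.03, 10.37 and 11.47 at day 6, 9.35, 10.55 and 9.44 at day 9, 8.83 at day 16, 8.41 at day 29 and 8.25, 9.02 and 9.77 in the late tumours. The 6 tumours of day 3 lay close together and all above day 0, whereas days 1 and 2 overlapped with day 0 through its highest tumour. The change was 1.34 ± 0.31 (SE, adjusted p = 0.00379) at day 1, lost without day 0 replicate 4 (adjusted p = 0.0567), and reached 1.87 ± 0.32 (SE, adjusted p = 0.000131) at day 3. The late tumours did not differ from day 0 by the test (0.06 ± 0.29, adjusted p = 0.873).

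Cybb encodes the catalytic subunit of the phagocyte NADPH oxidase, which makes superoxide. Its values were 8.22, 8.82, 6.47 and 7.95 at day 0, 9.39, 10.68 and 11.20 at day 1, 11.71, 10.23, 10.01, 9.89 and 11.43 at day 2 and 10.44, 11.05 and 11.70 at day 3. They were 10.72, 10.13, 11.54 and 11.16 at day 6, 9.33, 10.89 and 10.49 at day 9, 10.08 at day 16, 8.75 at day 29 and 7.20, 8.97 and 9.42 in the late tumours. No tumour of days 1 to 9 overlapped with day 0, but the late tumours did. The change was 2.66 ± 0.43 (SE, adjusted p = 0.000154) at day 1, or 6.3-fold, 3.19 ± 0.44 (SE, adjusted p = 1.36e-05) at day 3, or 9.16-fold, and 2.37 ± 0.52 (SE, adjusted p = 0.00879) at day 9. With spike-in set as a block the day 1 and day 3 values were 1.98 (adjusted p = 0.046) and 3.64 (adjusted p = 0.0531).

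**Figure D3:**
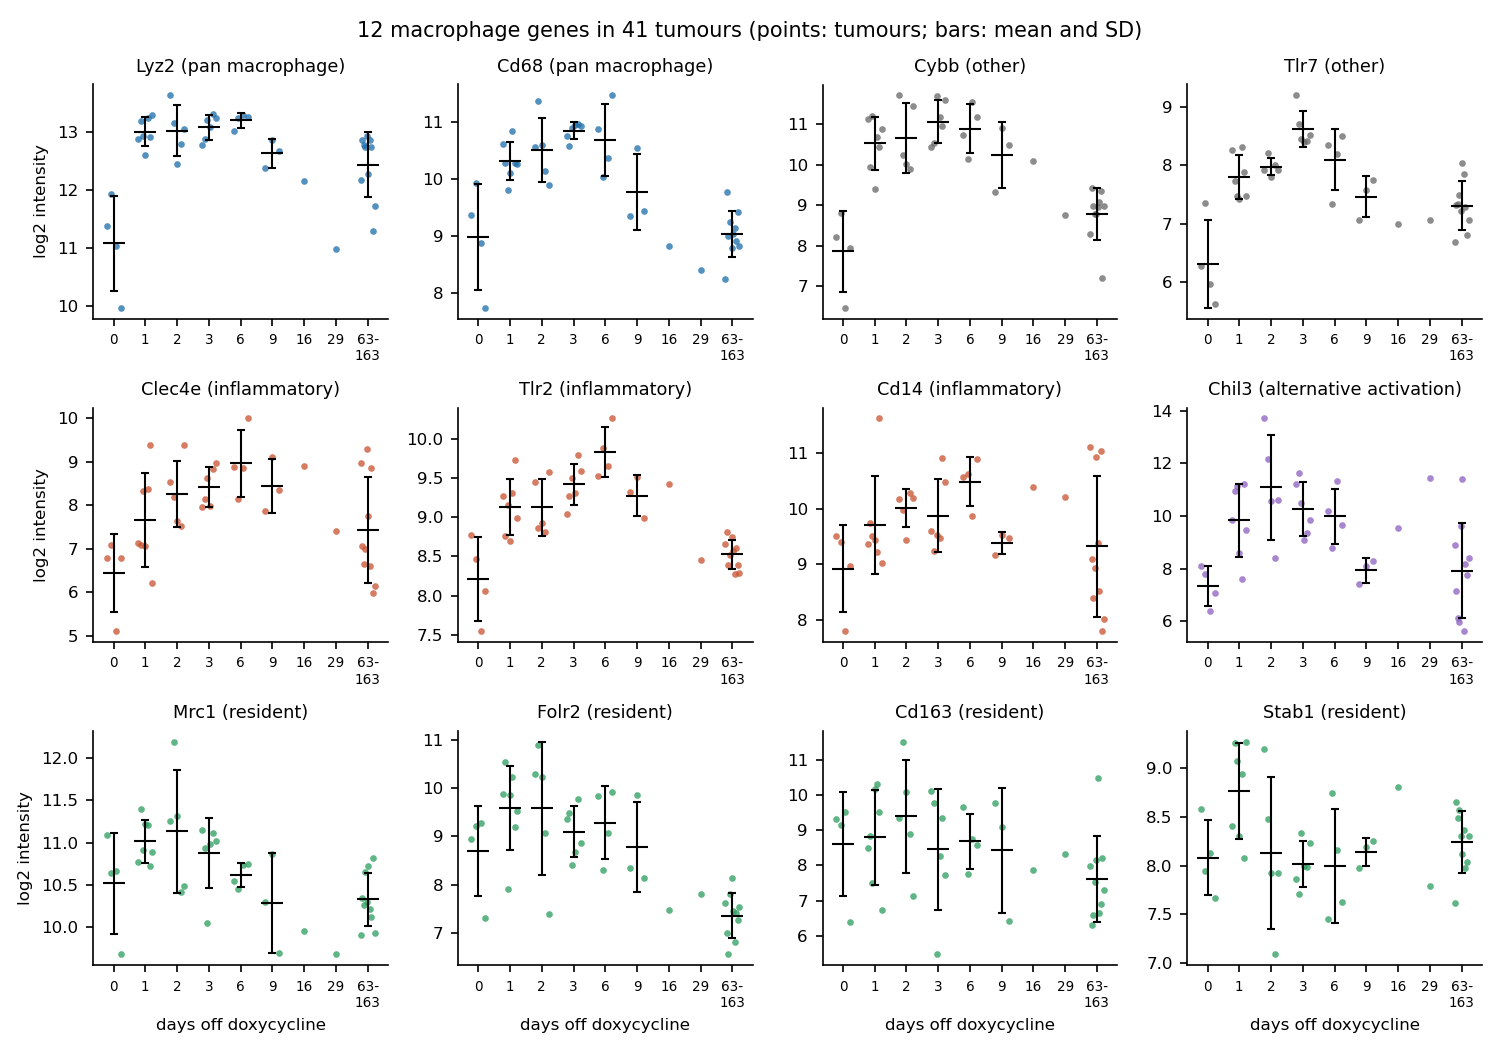
Log2 intensity (vertical axis) of 12 members in each of the 41 tumours by days off doxycycline (horizontal axis), with the group mean and SD as bars and no bar for the single tumours of days 16 and 29. Lyz2, Cd68, Cybb and Tlr7 stood above day 0 in nearly every tumour of days 1 to 6, the 3 inflammatory genes had their highest group mean at day 6, and the resident genes Mrc1, Folr2, Cd163 and Stab1 overlapped with day 0 on every day up to 9.

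Mpeg1, which encodes the pore-forming perforin-2 of phagocytes, rose by 2.15 ± 0.40 (SE, adjusted p = 0.000612) at day 1, 2.32 ± 0.41 at day 3 and 2.35 ± 0.45 at day 6. Its day 0 tumours spanned 8.13 to 9.88, and no tumour of days 1 to 9 overlapped with them. With spike-in set as a block it was among the 4 members still called at day 1 (2.09, adjusted p = 0.0253), with Cybb, Laptm5 and Slc11a1. Slc11a1, the phagosomal metal transporter once called Nramp, was called higher at day 1 (1.58 ± 0.34, adjusted p = 0.0022), day 3 (1.11 ± 0.35) and day 6 (1.29 ± 0.38). Day 1 replicate 4 read 6.52 for Slc11a1, against 8.14 to 9.06 in the other 6.

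Other pan-macrophage members differed in the days on which they were called. Adgre1, an adhesion receptor and classical marker of mouse macrophages, read 7.36, 7.31, 7.35 and 6.23 at day 0, 7.84, 8.87 and 9.93 at day 1, 9.70, 9.08, 8.11, 7.20 and 8.25 at day 2 and 8.14, 8.49 and 9.10 at day 3. The later values were 8.29, 9.17, 9.10 and 8.45 at day 6, 7.25, 7.999 and 8.74 at day 9, 7.498 at day 16, 6.79 at day 29 and 7.001, 7.83 and 8.26 in the late tumours. Of days 1 to 6 only day 2 overlapped with day 0, through its replicate 4. The change was 1.73 ± 0.37 (SE, adjusted p = 0.00202) at day 1 and 1.69 ± 0.41 (SE, adjusted p = 0.00689) at day 6. At day 2 it was 1.40 ± 0.39 (SE, adjusted p = 0.0142) and at day 3 1.45 ± 0.38 (SE, adjusted p = 0.00649), and both calls were lost without day 0 replicate 4, the day 2 call also without day 2 replicate 1 (highest adjusted p 0.0859 at day 2 and 0.0531 at day 3). Itgb2, the shared beta chain of the leukocyte integrins, rose by 1.79 ± 0.35 at day 1 and 1.70 ± 0.40 at day 6. Itgam, the CD11b chain that pairs with it, was not called at day 1 (0.60 ± 0.42, adjusted p = 0.358) but was at day 2 (1.55 ± 0.44, adjusted p = 0.0165), day 3 (1.28 ± 0.43) and day 6 (1.49 ± 0.47), and each of these 3 calls was lost without day 0 replicate 3 or 4 and without other single tumours. Aif1, the calcium-binding protein IBA1, was called at day 3 alone (1.14 ± 0.41, adjusted p = 0.0432) and lost that call when any of 8 of the 10 tumours was left out. Laptm5, a lysosomal protein of blood cells, rose by 0.85 ± 0.19 (SE, adjusted p = 0.00262) at day 1, but of its 5 probe sets 1 had the opposite sign at days 1 and 2 and 2 had it at day 3.

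The 3 inflammatory sensors had their highest group mean at day 6. Clec4e, the Mincle receptor for mycobacterial lipid and dead cells, read 6.79, 7.07, 5.11 and 6.78 at day 0, 6.21, 7.14 and 9.38 at day 1, 8.53, 8.18, 7.64, 7.52 and 9.39 at day 2 and 7.95, 8.39 and 8.96 at day 3. It read 8.88, 8.14, 8.85 and 9.99 at day 6, 7.87, 9.11 and 8.35 at day 9, 8.90 at day 16, 7.41 at day 29 and 5.99, 7.03 and 9.29 in the late tumours. All tumours of days 2 to 9 were above day 0, day 1 overlapped with it, and 4 of the 10 late tumours were above it. The change was 1.21 ± 0.57 (SE, adjusted p = 0.155) at day 1, 1.81 ± 0.61 (SE, adjusted p = 0.04) at day 2, 1.98 ± 0.59 at day 3 and 2.53 ± 0.64 (SE, adjusted p = 0.00903) at day 6. The day 2 call was lost without any of 6 tumours and the day 3 call without day 0 replicate 3 (adjusted p = 0.0819), which read 5.11 against 6.78 to 7.07 in the other 3. With spike-in set as a block the values were -0.40 at day 1 and 1.501 at day 6, neither called.

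Tlr2, a receptor for bacterial lipoproteins, read 8.77, 8.47, 7.54 and 8.06 at day 0, 8.70, 9.16 and 9.73 at day 1, 9.45, 8.87, 8.93, 8.81 and 9.57 at day 2 and 9.05, 9.41 and 9.79 at day 3. It read 9.53, 9.88, 9.66 and 10.26 at day 6, 9.32, 9.51 and 8.99 at day 9, 9.43 at day 16, 8.46 at day 29 and 8.27, 8.54 and 8.81 in the late tumours. Days 2 to 9 did not overlap with day 0, and the late tumours lay within its range or just above. Tlr2 was called higher at day 1 (0.92 ± 0.20, adjusted p = 0.002), day 2 (0.92 ± 0.21), day 3 (1.21 ± 0.20), day 6 (1.62 ± 0.22, adjusted p = 3.63e-05) and day 9 (1.06 ± 0.24, adjusted p = 0.00994). It was the only one of the 5 members called at day 9 that kept its call there whichever of the 7 tumours was left out.

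Cd14, the co-receptor that passes lipopolysaccharide to TLR4, was called in none of the comparisons. It read 9.51, 9.41, 7.81 and 8.97 at day 0, 9.03, 9.44 and 11.61 at day 1, 10.17, 9.98, 9.44, 10.27 and 10.18 at day 2 and 9.24, 9.57 and 10.91 at day 3. The values were 10.57, 10.61, 9.87 and 10.88 at day 6, 9.16, 9.52 and 9.48 at day 9, 10.38 at day 16, 10.21 at day 29 and 7.81, 9.01 and 11.10 in the late tumours. All 4 tumours of day 6 were above day 0, where the difference was 1.56 ± 0.59 (SE, adjusted p = 0.0776). With spike-in set as a block the differences of Cd14 were -0.93, -0.36, -0.50 and 0.11 on days 1, 2, 3 and 6, none of them called. Among the late tumours, replicates 1, 5 and 8 read 11.10, 10.93 and 11.04, and the other 7 read 9.38 or less.

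Other pattern and complement receptors differed in whether they were called. Tlr7, the endosomal sensor of single-stranded RNA, rose by 1.49 ± 0.26 (SE, adjusted p = 0.000353) at day 1 and 2.31 ± 0.27 (SE, adjusted p = 1.12e-06) at day 3, and its 5 values at day 2 lay between 7.80 and 8.21, against 5.63 to 7.36 at day 0. Its other 2 probe sets, which had lower means over all arrays, differed by 0.50 and 0.56 at day 3. Clec7a, the beta-glucan receptor Dectin-1, was not called on any day, with a difference of 2.04 ± 0.79 (SE, adjusted p = 0.0771) at day 2. Clec4n (Dectin-2) had a difference of 0.99 ± 0.36 (SE, adjusted p = 0.06) at day 2. C3ar1, the receptor for complement C3a, was called on all 4 days and rose most at day 3 (2.00 ± 0.31, adjusted p = 5.05e-05), although its day 1 call was lost without day 0 replicate 4 (adjusted p = 0.0634). C5ar1, the receptor for C5a, was called at day 2 (0.52 ± 0.15, adjusted p = 0.0155) and day 6 (0.59 ± 0.16, adjusted p = 0.012), on a probe set that read under 7.1 in every tumour.

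None of the 4 resident members was called against day 0 on days 1 to 9 by limma. At an unadjusted p under 0.05 there was 1 of 4 on each of days 1 and 2 and 0 on each of days 3, 6 and 9. Their median change on these 5 days was 0.59, 0.70, 0.15, 0.09 and -0.06. The same medians were 1.23, 1.47, 1.37, 1.59 and 0.89 for the 10 pan-macrophage members and 0.92, 1.08, 1.21, 1.62 and 1.06 for the 3 inflammatory ones. These medians are descriptions, and the difference between the subgroups was not tested. A missed threshold in so few tumours does not show that the resident genes stayed the same.

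Mrc1, the mannose receptor CD206, read 11.10, 10.64, 10.67 and 9.68 at day 0, 10.72, 10.91 and 11.39 at day 1, 11.26, 12.20, 11.32, 10.41 and 10.49 at day 2 and 10.05, 10.998 and 11.15 at day 3. It read 10.55, 10.45, 10.73 and 10.74 at day 6, 10.30, 10.87 and 9.69 at day 9, 9.96 at day 16, 9.68 at day 29 and 9.91, 10.28 and 10.81 in the late tumours. Every group of more than 1 tumour overlapped with day 0, and the day 29 tumour was just below it. Day 0 replicate 4 was the lowest of its 4 in this gene as well. The difference was 0.50 ± 0.27 (SE, adjusted p = 0.219) at day 1, 0.61 ± 0.28 (SE, adjusted p = 0.14) at day 2 and 0.10 ± 0.30 (SE, adjusted p = 0.866) at day 6.

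Folr2, a folate receptor of resident macrophages, read 8.95, 9.22, 9.28 and 7.31 at day 0, 7.91, 9.86 and 10.54 at day 1, 10.28, 10.89, 10.23, 9.07 and 7.41 at day 2 and 8.42, 9.11 and 9.78 at day 3. Its later values were 9.84, 8.31, 9.08 and 9.92 at day 6, 8.35, 9.86 and 8.15 at day 9, 7.47 at day 16, 7.81 at day 29 and 6.57, 7.44 and 8.13 in the late tumours. Day 0 replicate 4 and day 2 replicate 5 stood far below the rest of their groups. At day 1 the difference was 0.90 ± 0.49 (SE, adjusted p = 0.235) and at day 6 0.59 ± 0.56 (SE, adjusted p = 0.524).

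Cd163, the haemoglobin scavenger receptor, had the widest spread of the 4. It read 9.33, 9.15, 9.52 and 6.40 at day 0, 6.74, 8.83 and 10.31 at day 1, 9.33, 11.51, 10.07, 8.90 and 7.13 at day 2 and 5.48, 8.81 and 10.12 at day 3. The later values were 9.67, 7.75, 8.74 and 8.59 at day 6, 9.78, 9.08 and 6.42 at day 9, 7.87 at day 16, 8.33 at day 29 and 6.31, 7.42 and 10.47 in the late tumours. The SE of its differences from day 0 was 0.80 to 1.04, so a change of Cd163 had to be large to be called. Its difference was 0.20 ± 0.85 (SE, adjusted p = 0.912) at day 1 and 0.79 ± 0.91 (SE, adjusted p = 0.589) at day 2.

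Stab1, the scavenger receptor stabilin-1, read 8.58, 7.95, 8.13 and 7.67 at day 0, 8.08, 8.94 and 9.27 at day 1, 9.20, 8.48, 7.93, 7.09 and 7.93 at day 2 and 7.70, 7.99 and 8.33 at day 3. It read 7.46, 8.75, 8.16 and 7.63 at day 6, 7.98, 8.19 and 8.25 at day 9, 8.81 at day 16, 7.79 at day 29 and 7.61, 8.30 and 8.65 in the late tumours. At day 1, 4 of the 7 tumours were above every day 0 tumour, at days 2 and 6 it was 1 each, and at days 3 and 9 it was 0. The difference at day 1 was 0.68 ± 0.28 (SE, adjusted p = 0.0943) and at days 2, 3, 6 and 9 it lay between -0.08 and 0.06.

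**Figure D4:**
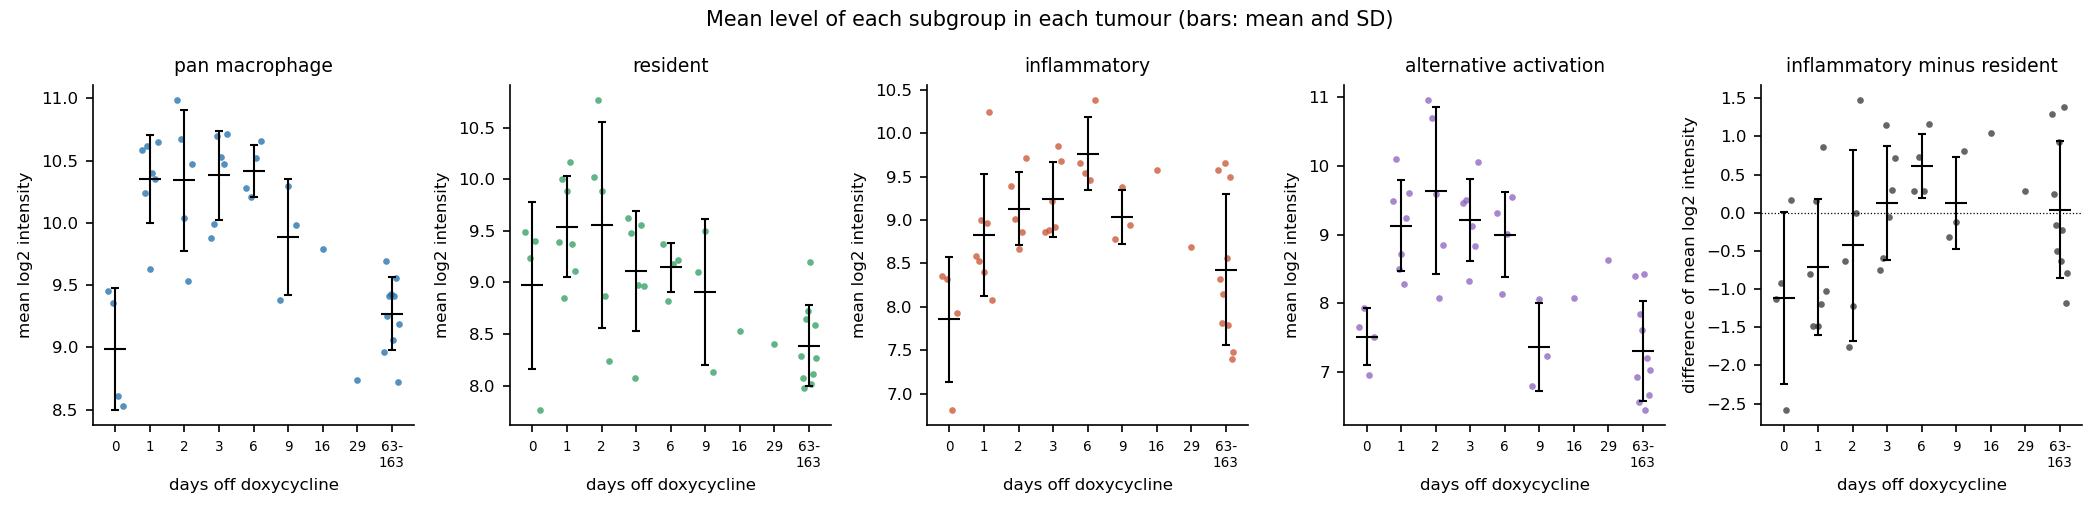
Mean log2 intensity of the 10 pan-macrophage, 4 resident, 3 inflammatory and 3 alternative activation members in each tumour by days off doxycycline, and, at the right, the inflammatory minus the resident mean, with group mean and SD as bars. The pan-macrophage mean averaged 10.34 to 10.42 at days 1 to 6, against 8.99 at day 0, the inflammatory mean was highest at day 6, and the difference was above 0 in all 4 tumours of day 6.

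The mean level of each subgroup in a tumour was also taken, as a description with no test. On days 0, 1, 2, 3, 6 and 9 (n = 4, 7, 5, 6, 4 and 3) the pan-macrophage mean was 8.99 ± 0.49, 10.35 ± 0.35, 10.34 ± 0.57, 10.38 ± 0.36, 10.42 ± 0.21 and 9.89 ± 0.47 (SD), and in the 10 late tumours it was 9.27 ± 0.29. In the same order of days the resident mean was 8.97 ± 0.81, 9.54 ± 0.49, 9.56 ± 1.00, 9.11 ± 0.59, 9.15 ± 0.24 and 8.91 ± 0.71, with 8.39 ± 0.39 in the late tumours. The inflammatory mean was 7.86 ± 0.72, 8.83 ± 0.70, 9.13 ± 0.42, 9.24 ± 0.43, 9.76 ± 0.42 and 9.04 ± 0.31, with 8.43 ± 0.87 in the late tumours. The inflammatory minus the resident mean within a tumour, whose zero has no meaning since the probe sets differ, averaged -1.12 ± 1.13, -0.71 ± 0.89, -0.43 ± 1.25, 0.13 ± 0.74, 0.61 ± 0.42 and 0.13 ± 0.60, with 0.04 ± 0.90 in the late tumours. Day 6 spanned 0.28 to 1.16 and day 0 -2.58 to 0.17, so these groups did not overlap, whereas the groups in between overlapped with both.

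Day 6 can be set against day 2 within 1 spike-in set. No gene on the array was called there by limma, member or not (0.0% of all genes), and at an unadjusted p under 0.05 there were 572 genes, 1 of them a member. That member was Tlr2, named after its value was seen, with 0.71 ± 0.21 (SE, adjusted p = 1). Clec4e differed by 0.71 ± 0.61 and Cd14 by 0.48 ± 0.56, while Mrc1 differed by -0.52 ± 0.28, Cd163 by -0.70 ± 0.91, Folr2 by -0.29 ± 0.53 and Stab1 by -0.13 ± 0.29. All 3 inflammatory members had a positive sign and all 4 resident ones a negative sign, but none of these differences passed the test.

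Genes of alternative activation, which IL-4 and IL-13 induce in mouse macrophages, varied widely between tumours of the same day. Chil3, a chitinase-like protein also known as Ym1, read 8.11, 7.79, 6.40 and 7.07 at day 0, 7.59, 9.86 and 11.22 at day 1, 13.72, 12.16, 10.58, 8.40 and 10.61 at day 2 and 9.10, 10.17 and 11.66 at day 3. It read 10.19, 8.78, 11.32 and 9.65 at day 6, 7.40, 8.11 and 8.31 at day 9, 9.54 at day 16, 11.44 at day 29 and 5.62, 7.98 and 11.41 in the late tumours. All tumours of days 2, 3 and 6 were above day 0, and day 9 overlapped with it again. Chil3 had the largest called rise of any member at day 2, 3.75 ± 0.94 (SE, adjusted p = 0.00705) or 13.5-fold, and was called at day 3 (2.94 ± 0.90, adjusted p = 0.0189), a call lost without day 0 replicate 3 or 4. Day 2 replicate 1, with the highest Chil3 level of all 41 tumours, also had a mean neutrophil marker level of 11.54, against 7.44 to 8.24 in the other 4 of its day. Developing neutrophils also make Chil3, and their part in that value was not tested. The same tumour was the highest of its day in 16 of 34 members. Among these were Lyz2, Itgam, Itgb2, Cybb and C5ar1, which neutrophils also make, but not Cd14, Tlr2 or Clec4e. Without that tumour the day 2 calls of Chil3, Lyz2, Itgb2 and Cybb were kept, and those of Itgam and C5ar1 were lost.

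Retnla, the secreted protein RELM-alpha, read 5.54, 5.87, 5.32 and 5.89 at day 0, 6.14, 7.04 and 10.44 at day 1, 10.22, 7.49, 6.85, 6.32 and 6.29 at day 2 and 6.18, 6.57 and 8.49 at day 3. It read 7.10, 6.38, 6.93 and 7.61 at day 6, 5.66, 5.93 and 6.46 at day 9, 6.25 at day 16, 6.41 at day 29 and 5.72, 6.20 and 7.58 in the late tumours. Every tumour of days 1 to 6 was above day 0, yet most were below 8 and only 2 of day 1, 1 of day 2 and 1 of day 3 went higher. The rise at day 1 was 2.11 ± 0.66 (SE, adjusted p = 0.0297), and it was lost without any of 5 single tumours.

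Arg1, the arginase that turns arginine into ornithine, read 9.34, 10.14, 9.16 and 9.57 at day 0, 8.19, 9.45 and 11.05 at day 1, 8.94, 12.45, 11.35, 9.54 and 9.66 at day 2 and 8.33, 10.44 and 11.80 at day 3. It read 10.64, 9.24, 8.77 and 11.40 at day 6, 7.35, 10.16 and 6.93 at day 9, 8.43 at day 16, 8.05 at day 29 and 6.37, 7.34 and 10.09 in the late tumours. The first week overlapped with day 0 in both directions, and 8 of the 10 late tumours were below every day 0 tumour. No day from 1 to 9 was called, with differences of 0.25 ± 0.74 (SE, adjusted p = 0.871) at day 1 and -1.41 ± 0.91 (SE, adjusted p = 0.382) at day 9.

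The other members include markers of particular macrophage states. Trem2, a lipid receptor of macrophages that clear debris, read 7.14, 7.74, 7.38 and 6.75 at day 0, 7.23, 7.94 and 8.48 at day 1, 7.997, 8.65, 8.38, 7.73 and 7.34 at day 2 and 8.12, 8.34 and 8.73 at day 3. It read 8.63, 7.27, 8.31 and 8.89 at day 6, 7.03, 7.94 and 7.36 at day 9, 7.14 at day 16, 6.68 at day 29 and 6.42, 6.65 and 7.32 in the late tumours. The tumours of day 3 were all above day 0, and those of day 6 were except replicate 2. Trem2 was called at day 3 (1.16 ± 0.26, adjusted p = 0.00213) and day 6 (1.02 ± 0.29, adjusted p = 0.0171), and the second call was lost without day 0 replicate 4, day 6 replicate 1 or day 6 replicate 4. Ms4a7, a membrane protein of macrophages, was called on the same 2 days, with 1.35 ± 0.46 at day 3 and 1.62 ± 0.51 at day 6, and lost both calls without day 0 replicate 3 or 4 and without other single tumours.

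Cx3cr1, the fractalkine receptor of monocytes and some resident macrophages, was low in most tumours. It read 5.66, 6.12, 6.07 and 5.71 at day 0, 5.95, 7.15 and 9.18 at day 1, 7.77, 6.32, 6.08, 6.12 and 5.77 at day 2 and 5.91, 6.14 and 8.25 at day 3. Later it read 5.90, 6.06, 6.97 and 5.91 at day 6, 5.89, 5.93 and 6.03 at day 9, 5.59 at day 16, 5.64 at day 29 and 5.75, 6.13 and 7.38 in the late tumours. At day 1, 6 of the 7 tumours were above day 0, and it was called there (1.37 ± 0.44, adjusted p = 0.0322), and the call was lost without any of 6 tumours, 3 of day 1 and 3 of day 0. It was not called on later days.

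Marco stayed near the floor of the array. It read 4.997, 5.16, 4.997 and 4.95 at day 0, 5.06, 5.26 and 5.78 at day 1, 5.62, 5.12, 5.22, 5.06 and 5.61 at day 2 and 4.98, 5.10 and 5.27 at day 3. It read 5.18, 5.08, 5.02 and 5.26 at day 6, 5.32, 5.58 and 5.16 at day 9, 5.28 at day 16, 6.32 at day 29 and 4.95, 5.11 and 5.35 in the late tumours. The day 29 tumour was the highest of the 41. Msr1, the class A scavenger receptor, was not called between days 1 and 9, with differences between -0.11 and 0.33. Its other 3 probe sets, which were not tested, differed more at day 3, by 0.41, 0.85 and 1.01, against -0.11 in the one used. Pf4, a platelet chemokine that macrophages also make, was not called either, with differences between -0.33 and 0.04. Vsig4, a complement receptor of resident macrophages, was called at day 2 alone (1.73 ± 0.60, adjusted p = 0.0451) and lost that call without any of 7 of the 9 tumours.

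At day 9 the 5 members still called were Lyz2 (1.56 ± 0.33), Mpeg1 (2.04 ± 0.48), Tlr2 (1.06 ± 0.24), Tlr7 (1.16 ± 0.31) and Cybb (2.37 ± 0.52). Without day 9 replicate 3 the count was 1. Within spike-in set 3, which holds all of day 9 and day 0, the fold changes were the same but a fit of those tumours alone called 0 members, with 8 of 34 at an unadjusted p under 0.05, and called 1 gene of 14319. Day 9 replicate 2 had the highest level of its group in 21 of 34 members and replicate 1 the lowest in 23.

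The tumours of days 16 and 29 stand alone and were not tested. At day 16, 15 of 34 members were above every day 0 tumour, among them Lyz2, Mpeg1, Cybb, Tlr2 and Clec4e, and 3 were below (Arg1, Cx3cr1 and C5ar1), while 36.9% of all tested genes were above and 24.9% below. At day 29 it was 5 above (Clec4e, Cd14, Chil3, Retnla and Slc11a1) and 11 below, namely Aif1, Laptm5, Mrc1, Arg1, Msr1, Maf, Cx3cr1, Trem2, Ms4a7, Clec4n and C5ar1, while 34.6% of all genes were above and 26.7% below. With 1 tumour against 4 such counts are easily reached, and the members above day 0 at day 29 were fewer than that background. In the day 29 tumour 2 of the 3 inflammatory sensors were above day 0. Of the 10 pan-macrophage members 2 were below it, and of the 4 resident members 1. Beside the 34.6% and 26.7% of all genes, counts this small cannot show a difference between the subgroups.

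In the late tumours the macrophage genes were lower than in the tumours of day 1. Of the 34, 25 were called lower and none higher, while 22.8% of all tested genes were called lower and 28.9% higher. The median change of the members was -1.03, against 0.06 over all genes. All 10 pan-macrophage, 3 of 4 resident, 1 of 3 inflammatory and all 3 alternative activation members were among the 25, and 33 of 34 had a negative sign. Within spike-in set 2 alone, with 8 late and 6 day 1 tumours, 23 were called lower with a median of -0.99, so the fall was as large within 1 set. In 4 members, Cd68, Laptm5, C3ar1 and Msr1, all late tumours were below all day 1 tumours (3.72% of all genes).

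Folr2 had the largest called fall, -2.22 ± 0.39 (SE, adjusted p = 2.02e-05) or 4.67-fold lower, and it was -2.19 within spike-in set 2. Its late tumours spanned 6.57 to 8.13, against 7.91 to 10.54 at day 1, with an overlap through day 1 replicate 3. Spi1 fell by 1.52 ± 0.21 (SE, adjusted p = 1.05e-06), with late tumours from 7.05 to 7.99 against 7.73 to 9.47 at day 1. Cybb differed by -1.74 ± 0.34 (SE, adjusted p = 7.38e-05), Cd68 by -1.27 ± 0.24 (SE, adjusted p = 5.68e-05), Adgre1 by -1.11 ± 0.29 (SE, adjusted p = 0.0018) and Csf1r by -0.68 ± 0.18 (SE, adjusted p = 0.00209). Lyz2 moved least among the pan-macrophage genes (-0.57 ± 0.21, adjusted p = 0.0254), a call lost without any of 3 tumours. Of the inflammatory sensors Tlr2 was lower (-0.61 ± 0.15, adjusted p = 0.00141), whereas Clec4e (-0.22 ± 0.45, adjusted p = 0.7) and Cd14 (-0.38 ± 0.41, adjusted p = 0.448) were not called.

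**Figure D5:**
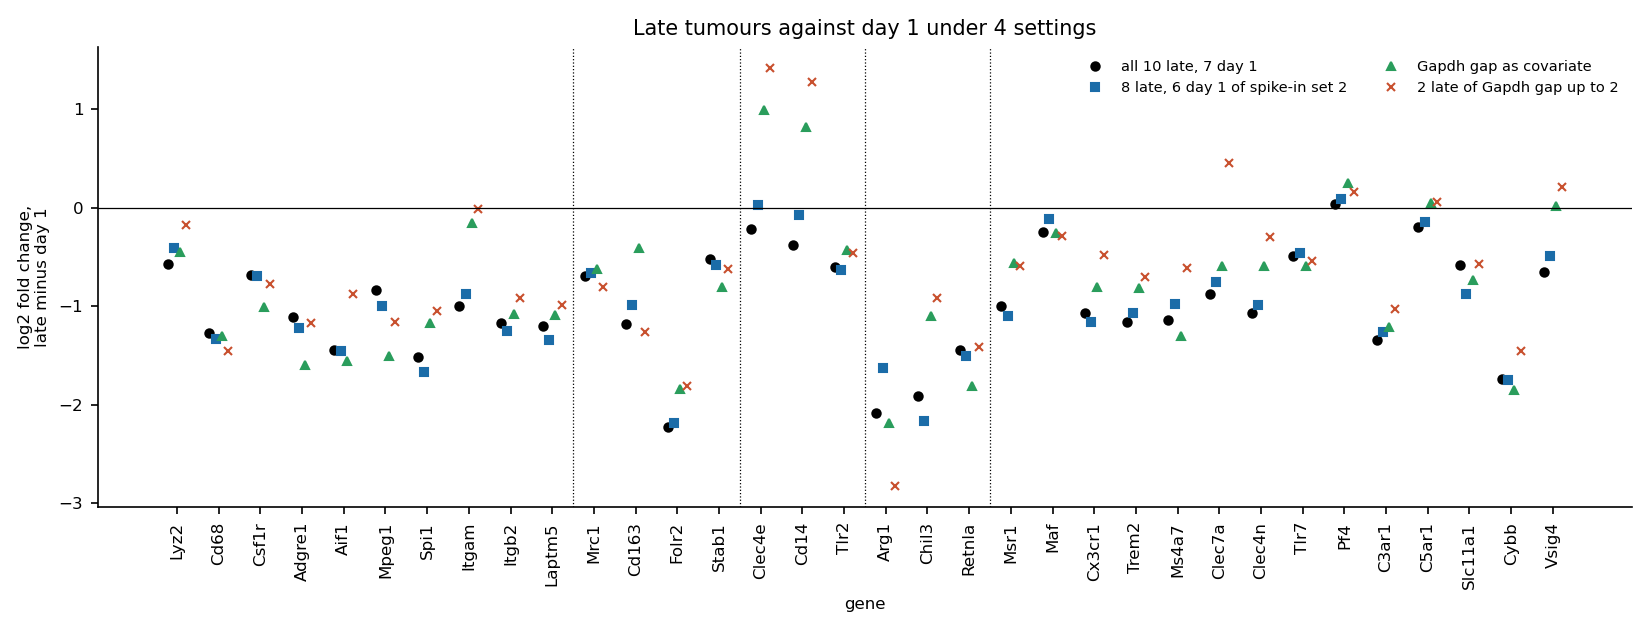
Log2 fold change of late tumours minus day 1 for the 34 tested members (horizontal axis, in role groups divided by dotted lines) in the fit of all tumours, within spike-in set 2, with the Gapdh gap as a covariate, and with the 2 late tumours whose gap is up to 2. Most members lie below 0 under all 4 settings, while Clec4e and Cd14 lie above 0 under both Gapdh settings, at 1.42 and 1.28 without the tumours of a gap over 2, where neither was called.

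RNA quality moved with this result. The Gapdh gap averaged 2.62 ± 1.38 (SD, n = 10) in the late tumours and 0.51 ± 0.34 (n = 7) at day 1. With the gap as a covariate 15 members were called lower, and with only the 2 late tumours of a gap up to 2, replicates 5 and 8, 5 were called: Cd68, Csf1r, Spi1, Laptm5 and Arg1. In these fits 14.9% and 14.6% of all genes were called lower, so the count of 5 of 34 is at the background. The members had a median of -0.67 in that last fit, against -0.05 over all genes. In those 2 tumours Clec4e read 9.29 and 8.86 and Cd14 read 10.93 and 11.04, against medians of 6.82 and 8.72 in the other 8. Endothelial markers also moved in the fit of all tumours. There 8 of 10 were called higher in the late tumours than at day 1, beside 28.9% of all tested genes. The mean level of these markers spanned 7.87 to 8.86 in the late tumours, against 7.10 to 7.90 at day 1. Their part in the values of Mrc1 and Stab1, which endothelial cells also make, was not tested. Of the 6 melanocyte genes 5 were called higher and 1, Sox10, lower in the late tumours than at day 1, with a median of 0.71. The shares of all tested genes were 28.9% higher and 22.8% lower. The mean of the 6 melanocyte genes spanned 6.66 to 8.42 in the late tumours, against 6.70 to 7.06 at day 1. The part of a changed tumour cell share in the macrophage values was not tested.

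Against day 0 the late tumours had 4 members higher, Lyz2 (1.36 ± 0.26, adjusted p = 6.53e-05), Mpeg1 (1.31 ± 0.37, adjusted p = 0.00466), Tlr7 (1.00 ± 0.24, adjusted p = 0.00111) and Slc11a1 (1.00 ± 0.32, adjusted p = 0.0108). The 3 lower members were Arg1 (-1.84 ± 0.70, adjusted p = 0.0306), Folr2 (-1.33 ± 0.47, adjusted p = 0.0198) and Msr1 (-0.83 ± 0.33, adjusted p = 0.0376). Only Lyz2 and Tlr7 kept their call whichever single tumour was left out. Without day 0 replicate 3 the count was 4. The 2 late tumours in spike-in set 3 with day 0 gave 1 call, Arg1 (-2.87, adjusted p = 0.0409), and a Lyz2 difference of 0.43 that did not pass. With the Gapdh gap as a covariate, Lyz2 and Tlr7 were still called, Clec4e (2.24) and Cd14 (1.63) were called higher as well, and no member was called lower.

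Other genes of phagocytes and their signals were read from further lists. Of 26 tested phagocyte genes outside the 35, 15, 16, 17, 15 and 2 were called higher on days 1, 2, 3, 6 and 9, and 18 were called lower and 1 higher in late tumours against day 1. The shares of all tested genes were 7.57%, 6.74%, 9.74%, 5.74% and 2.65% higher on those days, and 22.8% lower and 28.9% higher in the last comparison. Ly86, the MD-1 partner of a TLR4-like receptor, had the lowest p of the 26 at day 1 (2.43 ± 0.34, adjusted p = 3.49e-05), and C1qb, a chain of complement C1q made by macrophages, followed (2.08 ± 0.34, adjusted p = 0.000172). C1qa, another chain, spanned 6.49 to 11.02 in the late tumours, against 11.61 to 12.69 at day 1 (-4.03 ± 0.48, adjusted p = 6.53e-08). Ptprc, the CD45 antigen of all leukocytes, rose by 1.64 ± 0.33 (SE, adjusted p = 0.00127) at day 1 and was -0.76 ± 0.26 (SE, adjusted p = 0.014) in late tumours against day 1.

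Among 21 tested growth factor, chemokine and cytokine receptor genes, 7 were called higher at day 1 and 3 at each of days 2, 3 and 6. Those of day 1 were Csf1, Ccl8, Cx3cl1, Cxcl12, Csf2ra, Csf2rb and Ifngr1. Those of days 2, 3 and 6 were the chemokines Ccl8 and Cxcl12 and the receptor gene Ifngr1. The shares of all tested genes on these 4 days were 7.57%, 6.74%, 9.74% and 5.74%. Csf1, the ligand of Csf1r, was called at day 1 (0.63 ± 0.22, adjusted p = 0.0463) and not at day 2 (0.21 ± 0.23) or day 3 (-0.12 ± 0.22), and Il34, the other ligand, was not called at any of these days. Ccl2, the monocyte attractant, was not called at day 1 (-0.18 ± 0.47, adjusted p = 0.847), nor was its receptor Ccr2 (0.94 ± 0.35, adjusted p = 0.0682). In late tumours against day 1, 11 of the 21 were called lower and 1 higher, while 22.8% of all tested genes were called lower and 28.9% higher. There Csf1 was at -0.47 ± 0.17, Ccl2 at -1.29 ± 0.37, Ccr2 at -1.07 ± 0.27 and Tgfb1 at -2.47 ± 0.26 (SE, adjusted p = 1.96e-08).

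Among markers of other leukocytes, T and NK cell genes were called more often than neutrophil genes. Of 14 tested T and NK cell genes, 12, 6, 10, 4 and 2 were called higher on days 1, 2, 3, 6 and 9, and all 14 were lower in late tumours than at day 1. The shares of all tested genes were 7.57%, 6.74%, 9.74%, 5.74% and 2.65% higher, and 22.8% lower. The mean level of the T and NK cell genes spanned 5.52 to 6.85 at day 0, 6.91 to 8.60 at day 1, 6.58 to 7.92 at day 6 and 5.68 to 7.16 in the late tumours. Of 13 tested neutrophil genes, 1, 2, 1, 2 and 0 were called higher on those days, the last with 0 at an unadjusted p under 0.05 in limma. The called ones were the calprotectin genes S100a9 (4.44 ± 0.93, adjusted p = 0.00176, at day 2) and S100a8, which monocytes also make. Counts of 1 or 2 genes are too small to be set apart from the shares of all genes. The neutrophil mean spanned 6.41 to 7.46 at day 0, 7.15 to 8.90 at day 1, 7.44 to 11.54 at day 2, 7.59 to 8.04 at day 6 and 6.91 to 8.80 in the late tumours. The part of neutrophils in the values of Lyz2, Itgam, Itgb2, Cybb, Clec4e, Cd14, Tlr2 and C5ar1 was not tested. Nor was the part of T and NK cells in the values of Itgb2 and Laptm5, genes of leukocytes and blood cells.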

How the data were processed

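RNA of 41 iBIP melanomas was hybridised to Affymetrix whole-genome mouse arrays, 1 colour. The deposited values are linear intensities per probe set, already summarised by the authors; the submitters' processing notes name MAS5 and RMA without saying which made these values, so the background correction behind them is not given in the sources used here. The precision is limited by the number of arrays.

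Of 45101 probe sets, 34958 match 1 gene, 932 several and 9211 none. Intensities were taken as log2(value + 16) and then quantile normalised. Each gene was read from its probe set of highest mean, and kept where 3 or more arrays had it above their own 40th percentile. One limma fit (limma 3.58.1, R 4.3.3) gave each of the 9 groups a mean (the late days as 1 group), with Benjamini-Hochberg adjustment over 14319 genes and calls at an adjusted p under 0.05. On simulated data of 14319 genes with independent noise, the fit called 38% of genes set to change 1.5-fold, 79% at 2-fold and 95.5% at 4-fold for day 9 against day 0 (4.49% of calls false). For late against day 0 it called 62%, 88.5% and 97.5% (4.25% false), and for late against day 1 it called 71.5%, 91% and 99.5% (4.03% false).

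The members, gene lists and tests were chosen with earlier results of these data known. All members were accounted for: tumour values are given for the resident, inflammatory and alternative activation members, Lyz2, Cd68, Csf1r, Adgre1, Spi1, Trem2, Marco, Cx3cr1 and the members of largest called rise or fall, and the others by fold change or range. Other lists are given by counts, with some of their called genes, their genes of lowest p and a few chosen by symbol. Alternatives were array scaling, pseudocount, filter, probe set rule, limma settings, call rule, RNA quality, spike-in set, late days and each tumour left out. Python 3.11.15 and matplotlib 3.10.9 drew the figures.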

Additional observations from a re-analysis of the deposited data

Results flagged for a closer look

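A tumour stood apart from the rest of its day in 20 of 228 pairs of a value and a group tested, where chance alone flags about 1 in 20 (11.4 of 228). At day 0, Adgre1 read 6.23 in replicate 4, against 7.31 to 7.36 in the other 3, Cd163 read 6.40 there, against 9.15 to 9.52, and Folr2 read 7.31, against 8.95 to 9.28. The mean of the resident members was accordingly 7.77 in that tumour, against 9.24 to 9.49. Day 0 replicate 3 was low for Aif1, at 7.85 against 8.72 to 8.78, and for Clec4e, at 5.11 against 6.78 to 7.07.

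At day 1, replicate 4 was low for Itgb2 (9.06, against 9.96 to 10.61), Ms4a7 (9.43, against 10.43 to 11.05) and Slc11a1 (6.52, against 8.14 to 9.06), and its pan-macrophage mean was 9.63, against 10.24 to 10.65. Replicate 6 of day 1 was high for Cd14 (11.61, against 9.03 to 9.75), with an inflammatory mean of 10.24 against 8.08 to 9.00. Cx3cr1 was high in single tumours of 3 groups: 7.77 in day 2 replicate 1, against 5.77 to 6.32, 6.97 in day 6 replicate 3, against 5.90 to 6.06, and 7.38 in late replicate 8, against 5.75 to 6.42. Mrc1 read 10.05 in day 3 replicate 3, against 10.94 to 11.15, and Clec7a read 9.36 in day 6 replicate 2, against 10.89 to 11.12.

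Among the late tumours, Cd163 read 10.47 in replicate 6, against 6.31 to 8.21 in the other 9. Retnla read 7.58 in replicate 4, against 5.72 to 6.53, and Cybb read 7.20 in replicate 9, against 8.29 to 9.42.

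The single tumours of days 16 and 29, which entered no comparison, had 15 and 5 of the 34 members above every day 0 tumour, where 36.9% and 34.6% of all tested genes were above it.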

How the results depend on the processing

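Of 272 results (34 members in 8 comparisons), 102 were called, and none of these was called in the opposite direction under any of the 17 alternatives or without any single tumour. Of the 102, 7 kept their call in every alternative, and 83 uncalled results changed sign while staying uncalled. Ms4a7 in late tumours against day 0 was not called (0.02), but once spike-in sets entered the fit as a block it was called lower, at -1.35 (adjusted p = 0.0458). That block left 4 members called at day 1 (15 otherwise), 1 at day 2 (16), 2 at day 3 (18), 1 at day 6 (16) and 3 in late tumours against day 0 (7). None of the members called at day 2 remained under it. Fitting only the 2 groups compared called 9 members at day 2 and 0 at day 9, where limma had 9 members and 2481 genes at an unadjusted p under 0.05. Within spike-in set 3 the count was 0 at day 9 (8 members at an unadjusted p under 0.05) and 1 in late tumours against day 0. Without tumours of a Gapdh gap over 2 it was 1 at day 9 and 5 in late tumours against day 1 (25 otherwise), fits with fewer tumours. With 14.6% of all genes lower in the last of these, the 5 of 34 are at the background. With the gap as a covariate it was 4 in late tumours against day 0 and 15 against day 1 (14.9% of all genes lower). Array weights called 12 in late tumours against day 0. The cause of these differences was not tested. Leaving out 1 tumour at a time gave 11 to 18 called members at day 1, 10 to 20 at day 2, 11 to 18 at day 3, 11 to 17 at day 6, 1 to 6 at day 9, 4 to 9 in late tumours against day 0, 20 to 26 against day 1 and 0 to 0 for day 6 against day 2. Centring arrays on their medians gave 1262 genes higher and 605 lower at day 1, against 1084 and 895. No paired analysis was possible because the replicate numbers were given in accession order and pair no tumours.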
